A study of Mus musculus with 4 samples.

Results

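Claudin and tight junction genes were compared between mouse epiblast-like stem cells (EpiLSC) and naive embryonic stem cells (nESC). The set was chosen by gene name: the numbered claudins, the ZO genes of the Tjp series, the Marveld, Pard3, Pard6, Crb and Magi genes, the connexins of the Gja, Gjb and Gjc series, and Ocln, F11r, Jam3, Cgn, Cgnl1, Epcam, Patj and Mpp5. It holds 58 of the 20296 genes in the table, and the connexins among them form gap junctions rather than tight junctions. EpiLSC had been cultured for 3 days with activin A at 20 ng/ml and bFGF at 12 ng/ml, and nESC in 2i/LIF, a medium that keeps cells in the naive ground state. Each state was sampled 2 times, from the embryonic stem cell lines R1 and E14TG2a with 1 sample each, so the spread within a state contains the difference between the lines. Medium and state changed together and cannot be told apart.

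Tight junctions seal the space between epithelial cells near their apical side. Claudins build the sealing strands, occludin and its MARVEL relatives join them, ZO proteins and cingulins tie them to actin, and the Crumbs and Par complexes set where along the cell side they form. The embryonic epiblast becomes a polarised epithelium around the time of implantation, and nESC and EpiLSC are used as models of the stages before and after. Connexins form channels that connect the cytoplasm of neighbouring cells.

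The data were 1 comparison table from the authors, with no value per sample. Levels are given per state, derived from each gene's mean of normalized counts and its fold change, without an SD. Positive log2 fold changes were read as higher in EpiLSC, because all 8 markers of the epiblast after implantation (Fgf5 and Otx2 among them) were positive and called, and all 8 naive markers (such as Esrrb and Zfp42) were negative and called. Depth per library is unknown, and the means of all genes summed to 27888553 normalized counts. In RNA from a whole culture, fewer cells with a transcript and less transcript per cell cannot be told apart.

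Most of the tight junction genes that changed were higher in EpiLSC, while the connexins changed in both directions. Among the 58 genes 43 had an adjusted p, of which 16 rose and 4 fell in EpiLSC (Wald test of DESeq2 in the authors' deposited table, Benjamini-Hochberg adjusted p under 0.05). All adjusted p-values below are those of this test unless another setting is named. Over all 16361 genes with an adjusted p, 7.67% rose and 6.23% fell, or 13.9% in all. The median log2 fold change was 0.99 over the 43 genes and 0.02 over all tested genes. The genes that rose were Cldn1, Cldn6, Cldn7, Ocln, Marveld2, Marveld3, Epcam, Cgn, Cgnl1, Magi2, Crb1, Crb3, Patj, Pard3b, Gja1 and Gjb2, and Cldn19 and Gjb5 were among those that fell. Without the 9 tested connexins the counts were 14 and 1 among 34 genes. The other 15 members had means between 0.404 and 3.07 normalized counts and no adjusted p, and 8 further names that fit the rule, such as Cldn16, have no row and were not analysed here.

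Against a null of a 2-fold change 13 of the 43 tested members were called, where 6.91% of all 16361 tested genes were. Of the 43 members 10 rose at this null, where 3.84% of all tested genes did. Thus 13 of the 20 calls stood, and over all genes 1130 of 2274 calls did. The calls lost were those of Cgn, Cgnl1, Magi2, Crb1, Crb3, Pard3b and Cldn19. Of the 30 members whose mean reached 100, 13 rose and 2 fell, where 5.94% and 5.74% of all 10713 such genes did. Of the 11 members whose mean reached 1000, 3 rose and 0 fell, or 27.3% called, where 6.41% of the 4949 such genes were called. The 3 were Epcam, Patj and Gja1.

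**Figure D1:**
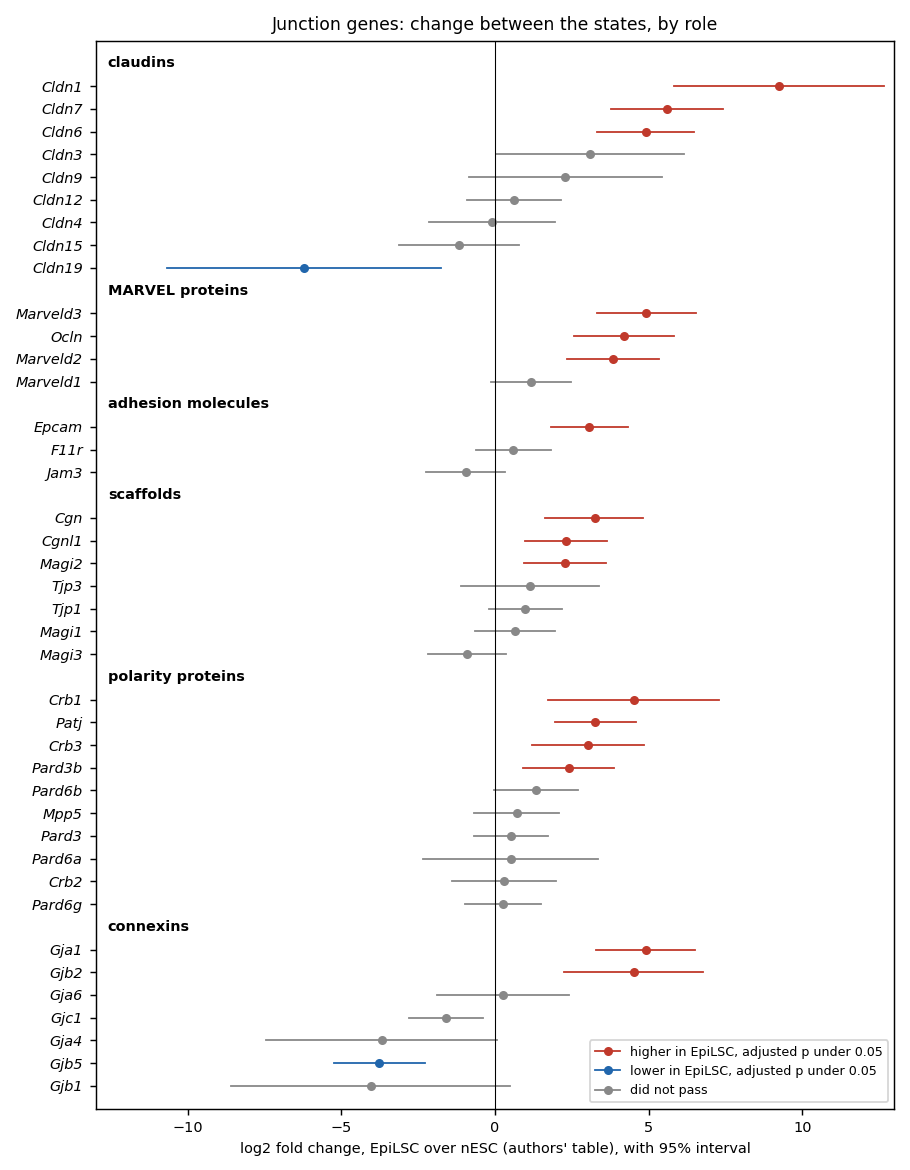
Log2 fold change, EpiLSC over nESC, of 40 of the 43 junction genes with an adjusted p, from the authors' deposited table; points are estimates and lines their 95% intervals, grouped by role. Of the MARVEL genes 3 of 4 rose, no scaffold or polarity gene fell, and the connexins lie on both sides of 0, with Gja1 at 4.90 and Gjb5 at -3.77.

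**Figure D2:**
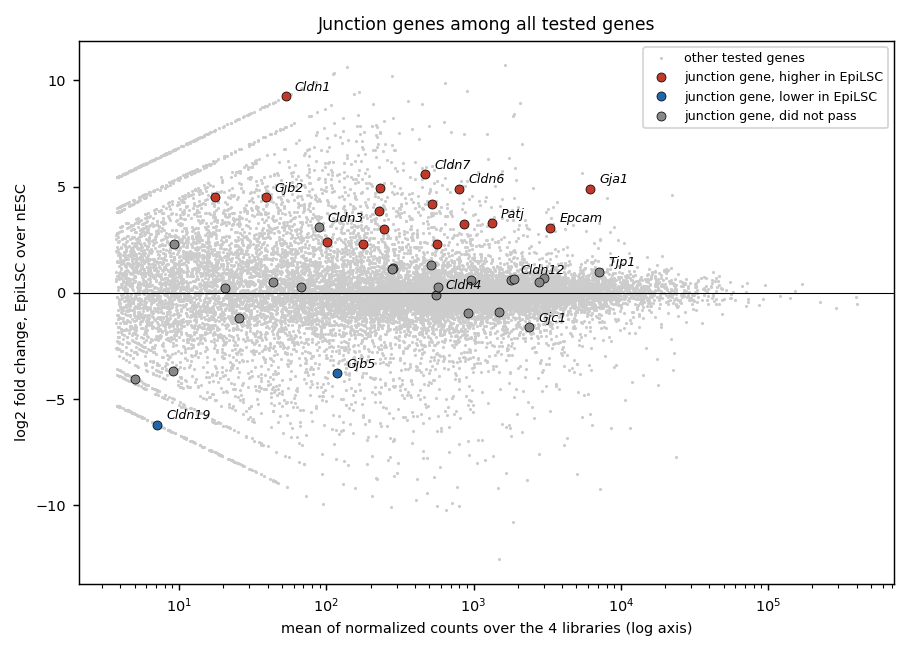
Log2 fold change, EpiLSC over nESC, against the mean of normalized counts (log axis) for all 16361 tested genes (grey dots) and 40 of the junction genes (circles), from the authors' deposited table. Gja1 and Epcam lie among the abundant genes, whereas Cldn1 and Cldn19 lie on the edges of the cloud, where the implied level of the lower state is under 0.2.

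Promoters of the called genes are shown because of CACCTG, an E-box bound by ZEB and SNAIL repressors of epithelial genes. It was more frequent among junction genes that rose, and among tested ones that were not called, than among all promoters. Members without an adjusted p are not in these counts. The RefSeq table of build GRCm38.p6 held 300 bases, 250 before to 50 after the start, for 17 of the 20 called genes. Searched on both strands, CACCTG stood in 12 of 22 promoters of genes that rose, or 9 of 15 genes, and in 0 of 3 promoters of Cldn19 and Gjb5. Of all 32851 promoters 20.2% held it, or 22.6% of 27025 genes. The tested junction genes that were not called held it in 9 of 17 genes. In the sequences below, printed 5′ to 3′, capitals mark CACCTG or its reverse complement; Cldn6, Cldn7, Crb3, Epcam and Ocln rose and Gjb5 fell.
Cldn6 (chr17:23679115-23679414, plus strand): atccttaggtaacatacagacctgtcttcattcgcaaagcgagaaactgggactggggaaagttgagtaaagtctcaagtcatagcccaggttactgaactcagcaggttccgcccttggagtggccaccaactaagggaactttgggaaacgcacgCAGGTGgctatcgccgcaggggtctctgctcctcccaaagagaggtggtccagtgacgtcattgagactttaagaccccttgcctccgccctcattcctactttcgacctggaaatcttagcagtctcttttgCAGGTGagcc
Cldn7 (chr11:69965171-69965470, plus strand): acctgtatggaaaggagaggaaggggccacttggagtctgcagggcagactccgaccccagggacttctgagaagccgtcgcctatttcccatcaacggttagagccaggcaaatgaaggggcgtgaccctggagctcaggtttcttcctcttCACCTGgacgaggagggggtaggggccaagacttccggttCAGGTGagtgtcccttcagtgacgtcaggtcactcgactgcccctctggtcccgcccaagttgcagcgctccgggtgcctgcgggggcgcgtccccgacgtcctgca
Crb3 (chr17:57061951-57062250, plus strand): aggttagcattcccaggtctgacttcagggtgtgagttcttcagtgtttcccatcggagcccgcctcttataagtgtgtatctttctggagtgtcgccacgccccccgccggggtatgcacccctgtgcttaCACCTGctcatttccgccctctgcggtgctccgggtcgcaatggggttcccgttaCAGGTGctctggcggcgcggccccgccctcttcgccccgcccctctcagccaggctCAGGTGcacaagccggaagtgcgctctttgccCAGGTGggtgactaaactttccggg
Epcam (chr17:87635729-87636028, plus strand): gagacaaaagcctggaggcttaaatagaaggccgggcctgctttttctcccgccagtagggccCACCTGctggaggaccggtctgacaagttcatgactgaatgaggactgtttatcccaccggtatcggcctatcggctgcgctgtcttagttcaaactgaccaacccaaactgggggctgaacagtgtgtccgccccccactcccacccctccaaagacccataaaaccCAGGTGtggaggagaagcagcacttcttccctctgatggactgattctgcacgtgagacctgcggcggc
Ocln (chr13:100552449-100552748, minus strand): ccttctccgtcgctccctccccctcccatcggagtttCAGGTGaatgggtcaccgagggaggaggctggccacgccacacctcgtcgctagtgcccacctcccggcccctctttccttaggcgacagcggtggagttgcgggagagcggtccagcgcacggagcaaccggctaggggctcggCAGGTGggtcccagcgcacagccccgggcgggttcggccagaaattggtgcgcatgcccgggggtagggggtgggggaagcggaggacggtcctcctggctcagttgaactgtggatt
Gjb5 (chr4:127358115-127358414, minus strand): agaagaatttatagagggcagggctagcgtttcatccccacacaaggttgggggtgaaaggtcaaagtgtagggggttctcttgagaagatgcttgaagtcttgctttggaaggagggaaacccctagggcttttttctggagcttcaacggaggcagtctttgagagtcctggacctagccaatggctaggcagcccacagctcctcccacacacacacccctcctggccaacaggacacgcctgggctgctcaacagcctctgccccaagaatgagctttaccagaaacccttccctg

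The promoters of genes that rose were picked for display because they hold matches: 4 in Crb3 and 2 in each of the others. Of the 22 promoters of genes that rose 10 had 0 matches, and Cgn, Cgnl1, Cldn1, Crb1, Gja1 and Pard3b had 0 in every promoter listed. The other promoter of Cldn7 had 0 matches and that of Ocln 1. Several genes have alternative starts whose windows overlap, so promoters of 1 gene are not independent. The second E-box searched, CAGCTG, was found in 2 of the 22 promoters, those of Magi2 and Patj, against 16.3% of all promoters, and in 6 of the 17 genes that were not called. The grainyhead-like motif AACCNGTT was found in 1, that of Cgn, against 2.09% of all. CCNCNCCC, a KLF-type motif, matched 16 of the 22 promoters, 20 of the 26 promoters of genes that were not called and 49.5% of all. The median GC content was 60.6% in the promoters of genes that rose, 59.3% in the 3 of genes that fell and 52.7% in all promoters. The median ratio of observed to expected CpG was 0.631 in the promoters of genes that rose, 0.157 in those of genes that fell and 0.384 in all.

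Among the claudins, the pore and barrier proteins of the strands, Cldn6, Cldn7 and Cldn1 rose. Cldn6, a claudin of embryonic epithelia, was at 1553 normalized counts in EpiLSC and 51.6 in nESC, a log2 fold change of 4.91 in the authors' deposited table (SE 0.80, adjusted p 5.48e-08). Cldn7, which binds the adhesion molecule EpCAM, was at 920 in EpiLSC and 19.0 in nESC, with 5.60 in the authors' deposited table (SE 0.93, adjusted p 8.71e-08). The levels of Cldn6 and Cldn7 were thus 30.1-fold and 48.4-fold higher in EpiLSC.

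Cldn1, a barrier claudin of the skin, had a lower mean of 53.1 normalized counts in the authors' deposited table. It was at 106 in EpiLSC and 0.174 in nESC, with a log2 fold change of 9.25 in the authors' deposited table (SE 1.74, adjusted p 3.68e-06). Cldn19, a claudin of kidney and Schwann cells, was at 0.19 in EpiLSC and 14 in nESC, with -6.21 in the authors' deposited table (SE 2.28, adjusted p 0.0472). Both genes are among 331 tested genes whose lower state had an implied level between 0.169 and 0.193 whatever the mean, so the sizes of these folds rest on no measured level in the lower state. The call of Cldn19 ended when all genes with a p were adjusted together (adjusted p 0.0585 from the authors' deposited p-values, range 0.0471 to 0.225 over its alternatives).

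The 2 claudins with the highest levels in nESC did not pass. Cldn12, an atypical claudin without the usual PDZ-binding end, was at 2196 normalized counts in EpiLSC and 1417 in nESC, with 0.63 in the authors' deposited table (SE 0.78). Cldn4, a receptor of a Clostridium toxin, was at 540 in EpiLSC and 576 in nESC, with -0.09 in the authors' deposited table (SE 1.05). Its 95% interval ran from -2.15 to 1.96, so values from a loss of more than 4-fold to a gain of just under 4-fold lie within it. Cldn3, its neighbour on the chromosome, had 3.10 in the authors' deposited table (SE 1.56, unadjusted p 0.0467, adjusted p 0.22), and the remaining tested claudins, Cldn9 and Cldn15, did not pass either. Among the 18 claudins listed, 9 were not tested, including Cldn2, Cldn5 and Cldn8, with means of up to 3.07.

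Per kb of merged exon, which allows levels of different genes to be set side by side, the claudins summed to 2365 normalized counts per kb in EpiLSC and 735 in nESC. In EpiLSC Cldn6 held 38.2% of this sum, Cldn12 22.0%, Cldn7 20.0% and Cldn4 12.6%. In nESC Cldn12 held 45.6%, Cldn4 43.1%, Cldn6 4.08% and Cldn7 1.33%. The order in nESC of Cldn12 and Cldn4, at 335 and 317 per kb, has no error to set against it. With the length of the principal transcript in place of all exons, a choice made after seeing the data, the shares in EpiLSC were 35.3% for Cldn6 and 25.4% for Cldn7, and those in nESC 47.3% for Cldn12 and 39.7% for Cldn4.

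**Figure D3:**
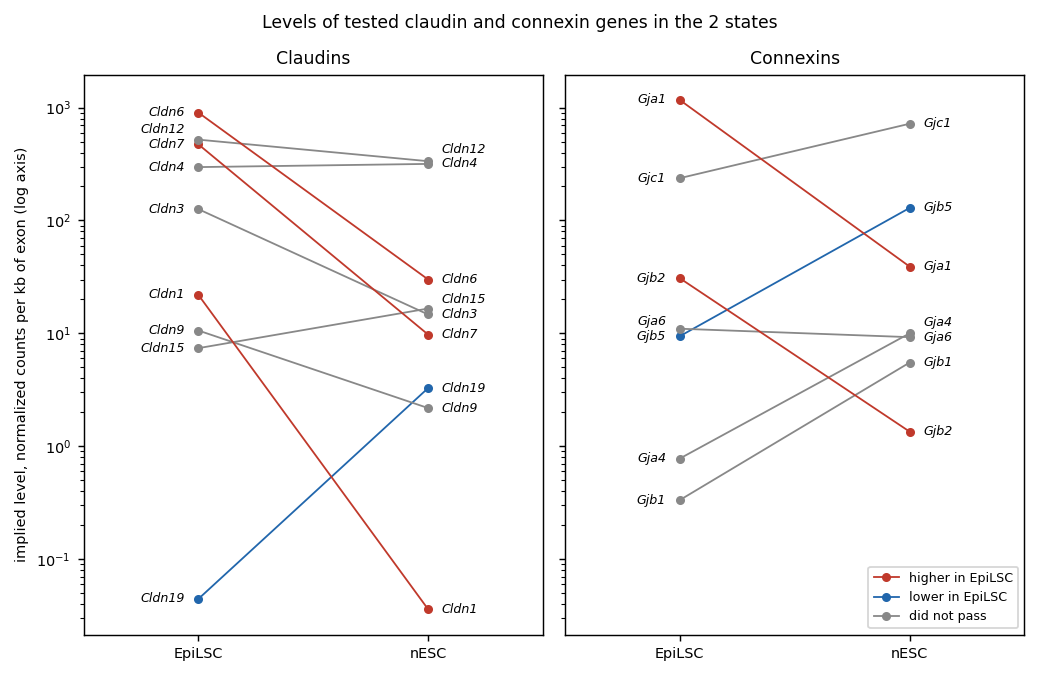
Implied level per kb of merged exon (log axis) of the tested claudin genes (left) and of 7 tested connexin genes (right) in EpiLSC and nESC; each line is 1 gene, coloured by its call. Cldn6 is at 902 per kb in EpiLSC, above Cldn12 at 520, and Gja1 is at 1167 per kb in EpiLSC and 39.1 in nESC.

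Of the 4 MARVEL proteins, which span the membrane beside the claudin strands, 3 rose, or 75.0% called beside 13.9% of all tested genes. Occludin (Ocln) was at 988 normalized counts in EpiLSC and 54.0 in nESC, with a log2 fold change of 4.19 in the authors' deposited table (SE 0.83, adjusted p 1.45e-05). Tricellulin (Marveld2), which sits where 3 cells meet, was at 427 in EpiLSC and 29.6 in nESC, with 3.85 in the authors' deposited table (SE 0.77, adjusted p 1.56e-05). Marveld3 was at 446 in EpiLSC and 14.7 in nESC, with 4.93 in the authors' deposited table (SE 0.83, adjusted p 1.17e-07). All 3 calls stood with no filter on the mean, among genes with means of at least 100, and against a 2-fold change. Marveld1, a relative that is not a strand component, had 1.16 in the authors' deposited table (SE 0.66) and did not pass.

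Ocln and Marveld2 are direct neighbours among protein-coding genes on chromosome 13. The next coding genes on either side, Gtf2h2 and Rad17, had 0.62 (SE 0.68) and 0.34 in the authors' deposited table (SE 0.72) and did not pass. The third gene on the Ocln side, Naip6, rose with 3.61 in the authors' deposited table (SE 1.09, adjusted p 0.00935). None of the other genes looked up around the pair was called. All were looked up after the values of the pair were seen. Cldn6 and Cldn9 are also adjacent, on chromosome 17, and there Cldn9, at 15.4 normalized counts in EpiLSC and 3.14 in nESC, had 2.29 in the authors' deposited table (SE 1.60) and did not pass. Here the direct flank on the Cldn6 side, Tnfrsf12a, rose with 2.80 in the authors' deposited table (SE 1.03, adjusted p 0.047), as did the fourth gene on that side, Bicdl2, with 6.50 (SE 1.66, adjusted p 0.00127). The flank on the Cldn9 side, 1520401A03Rik, did not pass, and these genes too were looked up after the values were seen.

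Of the adhesion molecules Epcam rose. Its level was 5926 normalized counts in EpiLSC and 705 in nESC, with a log2 fold change of 3.07 in the authors' deposited table (SE 0.64, adjusted p 3.56e-05). At 2700 per kb of merged exon, Epcam had the highest level per length of all members in EpiLSC. This rank was not checked with principal transcripts, whose length for Gja1 is 3.18 kb against 10.3 kb of merged exon. F11r, which encodes the junctional adhesion molecule JAM-A, was at 1167 in EpiLSC and 768 in nESC, with 0.60 in the authors' deposited table (SE 0.63). Its interval, from -0.63 to 1.84, lay within a 4-fold change either way. Jam3, which encodes JAM-C, was at 627 in EpiLSC and 1206 in nESC and did not pass, with -0.95 in the authors' deposited table (SE 0.66). Of its exon bases 36.2% are overlapped by the antisense gene Gm48796, and without the strand setting of the counting the reads of both cannot be told apart.

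Among the 8 scaffold proteins under the membrane 3 rose and 0 fell, or 37.5% called beside 13.9% of all tested genes. Cingulin (Cgn), which links ZO proteins to myosin and RhoA regulators, was at 1551 normalized counts in EpiLSC and 165 in nESC, with 3.24 in the authors' deposited table (SE 0.82, adjusted p 0.00108). Of the 50-base words in Cgn transcripts 17.2% also occur in transcripts of other genes, BC021767 among them, so part of its count is uncertain. Paracingulin (Cgnl1) was at 939 in EpiLSC and 188 in nESC, and Magi2 at 293 in EpiLSC and 59.9 in nESC. Cgnl1 had 2.32 (SE 0.68, adjusted p 0.00691) and the membrane-associated guanylate kinase gene Magi2 2.29 in the authors' deposited table (SE 0.68, adjusted p 0.00851).

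Of the ZO genes, whose products hold claudins and occludin together, Tjp1 and Tjp3 did not pass. Tjp1 was at 9451 normalized counts in EpiLSC and 4773 in nESC, with 0.99 in the authors' deposited table (SE 0.61). Tjp3 was at 388 in EpiLSC and 175 in nESC. Magi1 and Magi3 also did not pass. Magi1 was at 2296 in EpiLSC and 1460 in nESC, and Magi3, at 1034 in EpiLSC and 1933 in nESC, had the lowest value of the scaffolds at -0.90 in the authors' deposited table (SE 0.65). The scaffolds that rose were thus less abundant per length than Tjp1 in EpiLSC, at 258 per kb for Cgn and 1210 per kb for Tjp1.

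Of the 10 polarity proteins 4 rose and 0 fell, where 7.67% of all tested genes rose and 6.23% fell. In the Wald test against a 2-fold change the call of Patj stood (adjusted p 0.0133). Those of Crb1, Crb3 and Pard3b were lost (adjusted p 0.147, 0.282 and 0.491). The genes that rose were mostly of the Crumbs complex, of which Crb2 and Mpp5 did not pass. Patj, the PDZ scaffold of that complex, was at 2419 normalized counts in EpiLSC and 251 in nESC, with 3.27 in the authors' deposited table (SE 0.67, adjusted p 2.55e-05). Crb3, the Crumbs protein of most epithelia, was at 437 in EpiLSC and 53.9 in nESC, with 3.02 in the authors' deposited table (SE 0.93, adjusted p 0.0117). Crb1, known from the retina, was at 33.5 in EpiLSC and 1.47 in nESC, with 4.51 in the authors' deposited table (SE 1.42, adjusted p 0.0138), so its fold rests on few reads.

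Mpp5, which bridges Crumbs and Patj, was at 3730 in EpiLSC and 2275 in nESC and did not pass, with 0.71 in the authors' deposited table (SE 0.70). In the Par complex, Pard3b rose to 170 in EpiLSC, against 32.3 in nESC, with 2.40 in the authors' deposited table (SE 0.75, adjusted p 0.014). Its relative Pard3, a core Par scaffold, was at 3292 in EpiLSC and 2300 in nESC, with 0.52 in the authors' deposited table (SE 0.62). Neither Pard6b (1.33, SE 0.70) nor Pard6g (0.27, SE 0.63) passed in the authors' deposited table. These adaptors of the Par kinase were at 738 in EpiLSC and 292 in nESC for Pard6b, and at 624 in EpiLSC and 517 in nESC for Pard6g, and Crb2 and Pard6a had levels under 100 in both states. The antisense transcript Pard3bos2 had a mean of 0.68 in the authors' deposited table and was not tested.

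The connexins changed in both directions, with 2 that rose, Gja1 and Gjb2, and 3 that fell, Gjb5 among them. Of the 9 tested connexins 55.6% were called, beside 13.9% of all tested genes. Gja1, the most widely expressed connexin gene, was at 11973 normalized counts in EpiLSC and 401 in nESC, with a log2 fold change of 4.90 in the authors' deposited table (SE 0.82, adjusted p 1.33e-07). Gjb2, a connexin gene of the inner ear and skin, was at 74.1 in EpiLSC and 3.26 in nESC, with 4.51 in the authors' deposited table (SE 1.16, adjusted p 0.00138).

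Gjb5, a trophoblast and skin connexin gene, was at 16.2 normalized counts in EpiLSC and 221 in nESC, with -3.77 in the authors' deposited table (SE 0.76, adjusted p 1.83e-05). Gja4 was at 1.31 in EpiLSC and 16.9 in nESC, with -3.69 in the authors' deposited table (SE 1.92, adjusted p 0.244), and did not pass.

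Gjc1 was at 1184 normalized counts in EpiLSC and 3598 in nESC, with -1.60 in the authors' deposited table (SE 0.62, unadjusted p 0.00926, adjusted p 0.063), and did not pass. Per kb of merged exon the connexins summed to 1473 in EpiLSC and 1755 in nESC, and Gja1 held 79.2% of the sum in EpiLSC and 2.23% in nESC. In nESC Gjc1 held 41.0%. With the length of the principal transcript Gja1 held 86.6% in EpiLSC and Gjc1 57.3% in nESC. The remaining tested connexins, Gja6 and Gjb1, did not pass, at 22.3 normalized counts in EpiLSC and 18.7 in nESC for Gja6. The 5 connexins without an adjusted p had means between 0.68 and 2.44 in the authors' deposited table, and the median log2 fold change of the 9 tested was -3.69.

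Of the 23 tested members that were not called, 6 had a 95% interval within a 4-fold change either way, among them F11r, Magi1, Pard3, Pard6g and Crb2. For the others a larger change is not excluded, and none of the 23 is shown to be unchanged. Unadjusted p-values under 0.05 belonged to 2 of them, Cldn3 and Gjc1.

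Other junction genes, from lists chosen with earlier results of these data known, were set beside the members. Of 17 tested adherens junction genes 0 rose and 0 fell, where 13.9% of all tested genes were called. In a list of 17 genes that share amounts to only a few calls. The DESeq2 Wald test left 2 of the 17 with unadjusted p-values under 0.05. The cadherin gene Cdh1 was at 14312 normalized counts in EpiLSC and 13110 in nESC, with 0.13 in the authors' deposited table (SE 0.63), and the smallest p belonged to Ctnna2 at 3.19 (SE 1.24, adjusted p 0.0677). The median over this list was 0.33.

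Of 9 tested desmosome genes 5 rose and 0 fell, or 55.6% called beside 13.9% of all tested genes, with a median of 2.42. They were the desmosomal cadherins Dsc2 (3.72, SE 0.71) and Dsc3 (6.52, SE 1.79), the plaque protein Pkp2 (2.42, SE 0.75) and the plakins Ppl (3.66, SE 0.86) and Evpl (3.98, SE 1.46) in the authors' deposited table. Dsc3 had an implied level of 0.486 in nESC. Tested against a 2-fold change, 3 of these calls stood.

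Among 14 other junction membrane proteins 4 rose and 2 fell, or 42.9% called beside 13.9% of all tested genes, with a median of 0.71. The angulins, which recruit tricellulin to the points where 3 cells meet, split: Lsr (2.61, SE 0.85) and Ildr2 (4.34, SE 1.00) rose in the authors' deposited table, where Ildr1 (-3.10, SE 0.63) fell. The neuronal connexin gene Gjd2 (7.66, SE 2.00) rose in the authors' deposited table. Its implied level in nESC was 0.174, so the size of its fold rests on no measured level there. Jam2, the relative of F11r and Jam3, fell to 24.1 normalized counts in EpiLSC, against 14357 in nESC, with -9.22 in the authors' deposited table (SE 0.74). In the claudin relatives outside the rule the 1 tested gene, Cldnd1, had 0.40 in the authors' deposited table (SE 0.73) and did not pass.

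Among 34 other cytoplasmic junction and polarity genes 3 rose and 1 fell, a share of 11.8% beside the 13.9% of all tested genes. Mpdz, the paralog of Patj, rose with 4.52 (SE 0.64) and Amot, a partner of Patj, with 3.56 in the authors' deposited table (SE 0.68). The scaffold gene Dlg2 rose with 6.77 (SE 2.10), while Frmd4b fell with -2.02 in the authors' deposited table (SE 0.67). Dlg2 had an implied level of 0.172 in nESC, so the size of its fold rests on no measured level there. Against a 2-fold change 2 of the 4 calls stood.

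The epithelial regulators changed in both directions, with 5 rises and 8 falls among 24 tested genes and a median of -0.38. The share called was 54.2%, beside 13.9% of all tested genes. The splicing factor gene Esrp1 (6.35, SE 0.83), the grainyhead-like factor gene Grhl2 (3.79, SE 0.84) and the trafficking gene Rab25 (3.78, SE 0.93) rose, as did the mesenchymal regulators Zeb2 (5.04, SE 0.94) and Twist1 (4.26, SE 0.79), in the authors' deposited table. The falls were those of the repressor gene Zeb1 (-4.51, SE 0.67), of Grhl3 (-4.26, SE 0.82), Elf3 (-3.57, SE 0.86), Klf4 (-6.29, SE 0.68), Klf5 (-2.85, SE 0.88), Tfap2a (-3.75, SE 1.26) and Tfap2c (-5.82, SE 0.77), and of the tetraspanin gene Cd9 (-3.25, SE 0.64) in the authors' deposited table. The 2 ZEB genes, both repressors that bind the E-box searched above, thus moved in opposite directions.

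**Figure D4:**
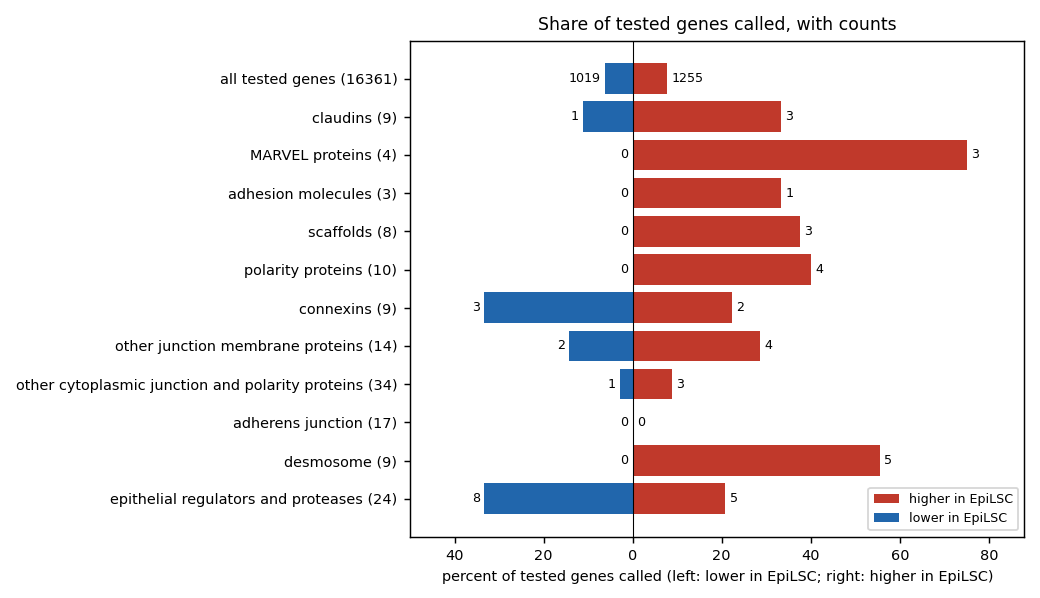
Percent of tested genes called in each role of the junction genes and in the other lists, to the right where higher in EpiLSC and to the left where lower; numbers at the bars are counts of genes, numbers in brackets the genes tested. Of all tested genes 7.67% rose and 6.23% fell, and of the 17 adherens junction genes 0 in either direction.

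Claudins and connexins are also used by cell types outside the epiblast, so their markers were read beside the results. Of 9 tested trophectoderm markers 2 rose (Krt18 and Eomes) and 3 fell (Cdx2, Tead4 and Tfap2c), and the summed level of all 12 listed was 4243 normalized counts in EpiLSC and 2448 in nESC. Eomes, which the epiblast also uses, was at 1917 in EpiLSC and 212 in nESC, and Krt18 at 1269 in EpiLSC and 43.4 in nESC. Cdx2 was at 1.8 in EpiLSC and 84.5 in nESC, Tead4 at 35.3 in EpiLSC and 1085 in nESC, and Tfap2c at 11.9 in EpiLSC and 671 in nESC. The 3 without an adjusted p, Elf5, Hand1 and Gata3, had means of 0.481, 0.404 and 2.20 in the authors' deposited table. Of 7 tested primitive endoderm markers 1, Dab2, rose and 1, Hnf4a, fell, and the summed level of the 10 in the table was 207 in EpiLSC and 158 in nESC. Dab2 was at 121 in EpiLSC and 11.8 in nESC, Hnf4a at 0.192 in EpiLSC and 44.8 in nESC, Pdgfra at 13.5 in EpiLSC and 69.9 in nESC, and Gata4 at 20.8 in EpiLSC and 13.1 in nESC. Gata6 and Sox7 had means of 2.81 and 1.41 in the authors' deposited table. Of 6 tested fibroblast and feeder markers 3 rose (Mmp2, Thy1 and Dcn) and 0 fell, with a summed level of 477 in EpiLSC and 101 in nESC over 9 genes. Mmp2 was at 205 in EpiLSC and 12.4 in nESC, Thy1 at 141 in EpiLSC and 5.83 in nESC, and Dcn at 52.6 in EpiLSC and 0.485 in nESC. Of those that did not pass, Col1a1 was at 9.04 in EpiLSC and 3.09 in nESC, and Col1a2 at 27.4 in EpiLSC and 4.24 in nESC. Pdgfrb, which did not pass either, lay the other way, at 31.2 in EpiLSC and 73.9 in nESC. The part of other cell types in the changes of the junction genes was not tested.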

How the data were processed

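RNA from 2 EpiLSC and 2 nESC samples was sequenced as ribosomal RNA-depleted, strand-specific libraries, per the labels. The submitters' processing notes name TopHat2, HTSeq, DESeq2 1.8.2 and build mm9; the sources used here give neither annotation nor strand setting of the counting. The deposited table holds, per the file headers, the mean normalized count of each gene (a signal made by the authors from counts and size factors), a log2 fold change, its standard error, a Wald score, a p-value and an adjusted p. A gene was called at an adjusted p under 0.05, as deposited by the authors over 16361 genes.

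Levels per state were the 2 values whose average is the mean and whose ratio is the fold change, which assumes equal weight of both states. Intervals are 95% and use the standard error. A level under 3 was taken as few reads. Names (20167 of 20296 IDs), exon lengths and transcripts came from GENCODE M21, and promoters, found for 46 members, from RefSeq GRCm38.p6. The table has no column per sample, so the count test and the leaving out of samples foreseen in the design were not run; the planned protein comparison was not made. The Wald and adjustment steps were tested on simulated data. Alternatives were no filter, a mean of 100 or more, a 2-fold null, recentring, other thresholds and leaving out connexins. Named were all called members and members with a mean of 305 or more, the median of tested genes; of the lists, the called genes. Cldn3, Cldn9, Cldn15, Marveld1, Tjp3, Crb2, Pard6a, Gja4, Gja6, Gjb1 and Cdh1 fall outside the rule and were named after their values were seen. Some genes of the set are counted but not reported here by name. Members, lists and motifs were chosen with earlier results of these data known. Python 3.11.15 with scipy 1.17.1 was used.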

Additional observations from a re-analysis of the deposited data

How the results depend on the processing

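Of the 20 called members, 10 stayed called under no filter, a mean of 100 or more and a 2-fold null, among them Cldn6, Cldn7, Epcam, Gja1, Gjb5, Marveld2, Marveld3, Ocln and Patj. The 2-fold null gave 13 calls in all and 10 that rose. It sets the part of a log2 fold change beyond 2-fold against its standard error. For Cgn, Cgnl1, Crb1, Crb3, Magi2, Pard3b and Cldn19 that part was too small beside the standard error for a call. With means of at least 100, 2 members fell, since others such as Cldn19 are below that mean, and without the connexins 1 fell. By the same step 2 of 4 calls were left in the cytoplasmic junction list and 3 of 5 in the desmosome list. Recentring on abundant genes shifted fold changes by 0.0 after rounding to 2 decimals, too little to put any call to a test. No paired analysis was possible because the table has no column per sample. Precision is limited by the standard errors, with a median of 0.79 over tested genes, and no gene with an absolute log2 fold change below 1.68 was called.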
